A study of Rattus norvegicus with 174 samples.

Results

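The blood of rats was examined 3 h after a single inhalation of phosphine (PH3), the gas used to fumigate stored grain, and set against the blood of air-breathing rats killed at the same time. The samples were chosen by their labels, 4 phosphine and 4 air blood samples of 174 tissue and blood samples in the study, each from a different rat. All 13438 genes that a probe set names alone were tested. The phosphine rats (Rat728, Rat729, Rat730 and Rat731) and the air rats (Rat732, Rat733, Rat738 and Rat739) were adult male Sprague-Dawley rats, an outbred stock. The phosphine group spent 32.2 min at 660 ppm, a product of 21252 ppm × min and 0.91 times the LCt50, the exposure product lethal to a median share of animals. The air group spent as long at 0 ppm. Both groups received ketamine and xylazine before they were bled out, blood was drawn by heart stick, and no sample precedes the anaesthetic. The animals' age is given only as adult. All samples are of whole blood, so red cell precursors, platelets and every kind of leukocyte contribute to each value.

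Phosphine is a poison of respiration, known to inhibit cytochrome c oxidase in isolated mitochondria and to cause oxidative damage. Blood is a moving tissue: stress hormones and inflammation are known to release neutrophils from the marrow and vessel walls and to send lymphocytes out of the circulation within hours. B lymphocytes carry the antigen receptor complex (Cd79b), the surface proteins Ms4a1 and Cd22 and the antigen presenting class II molecules, while neutrophils carry granule proteins and the calcium binding pair S100a8 and S100a9. In whole blood, fewer cells of a type and less RNA per cell of that type cannot be told apart.

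The arrays measure log2 signals, on which a difference of 1 is a doubling. Their spread of values differed between the groups, and this bears on every result. The 75th percentile of an array was 5.64 ± 0.04 in phosphine blood and 5.85 ± 0.05 in air blood (SD, n = 4 each), with no overlap, while the 25th percentile was 3.56 ± 0.03 in phosphine blood and 3.44 ± 0.03 in air blood. The exact two-sided permutation p was 0.0286 for each, the smallest that 4 against 4 arrays allow, and 0.0572 after Benjamini-Hochberg adjustment over 6 array measures. The 3′ minus 5′ signal of control probe sets, a sign of RNA breakdown, gave adjusted exact permutation p of 0.652 for actin, 0.515 for GAPDH and 0.943 for hexokinase. Phosphine arrays resembled one another less than air arrays did: the mean correlation with the other arrays of the group was 0.882 to 0.902 over the phosphine arrays, lowest for Rat729, and 0.938 to 0.945 over the air arrays. Results are therefore given on the deposited scale and again after quantile normalization over the 24 blood arrays, which gives every blood array the same distribution. Whether the narrower spread belongs to the RNA or to the arrays was not tested.

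More genes were lower than higher in phosphine blood at 3 h on both scales. On the deposited scale, limma called 887 of 13438 genes (6.6%) at an adjusted p under 0.05, of which 779 were lower (5.8%) and 108 were higher (0.804%) in phosphine blood. Of these, 815 differed by at least 1 on the log2 scale. After quantile normalization 247 genes were called (1.84%), with 173 lower (1.29%) and 74 higher (0.551%). Both scales shared 228 calls, 173 lower and 55 higher, which are 25.7% of the deposited calls and 92.3% of the normalized ones, and no called gene turned its sign. The lower share of calls was 87.8% on the deposited scale and 78.8% with each array centred on its median. Over all genes the median change was -0.07 on the deposited scale and 0.04 after quantile normalization, a shift of 0.115. The shift was not the same at all signal levels, so 0.115 is not the zero for every list below. Groups did not overlap for 1576 genes lower in phosphine blood (11.7%) and for 413 genes higher (3.07%), against 822 lower (6.12%) and 663 higher (4.93%) after quantile normalization. With the 75th percentile of each array as a covariate in the fit no gene was called, and 5.87% of genes had an unadjusted p under 0.05. Without Rat729, 209 genes were called on the deposited scale, 202 of them also called with all rats in the same direction, and 30 after quantile normalization.

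The calls followed the signal level. Among the 3360 genes with the strongest signals, 432 were called lower and 9 higher on the deposited scale, and their median change was -0.42. Among the 3360 with the weakest signals, 10 were called lower and 25 higher, with a median change of 0.16. After quantile normalization the strongest 3360 held 53 lower and 24 higher calls, with a median change of -0.04. The median change of the weakest 3360 was then 0.09.

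**Figure D1:**
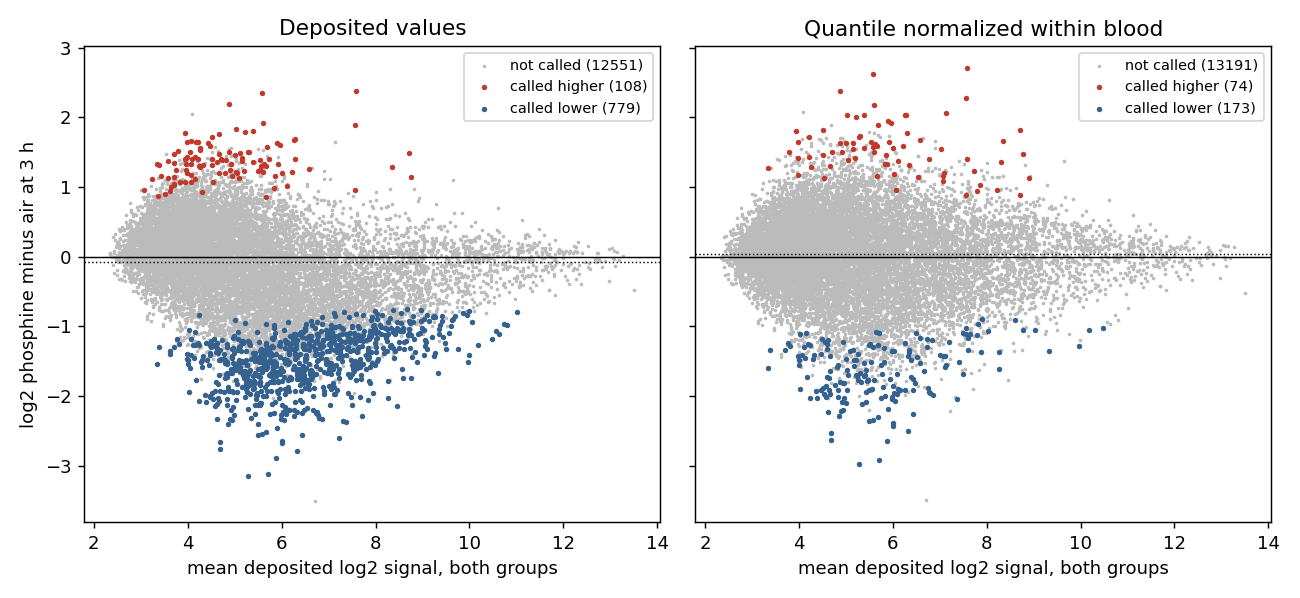
Change in blood at 3 h (log2 phosphine minus air, vertical axis) against the mean deposited log2 signal of both groups (horizontal axis) for 13438 genes, on the deposited scale and after quantile normalization. Coloured points are called genes, the solid line is 0 and the dotted line the median of all genes. The 779 lower calls of the deposited scale lie mostly at high signals, and 173 remain after quantile normalization.

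B lymphocyte genes were the cell type list with the most calls. Of 15 measured genes of the list, 11 fell on the deposited scale, where 5.8% of all genes were called lower, none rose, and the median change was -1.32. After quantile normalization, where 1.29% of all genes were called lower, 3 fell (Cd22, Bank1 and Cxcr5), none rose, and the median change was -1.05, with 14 of 15 changes below 0 on either scale. The mean log2 signal of the list was 6.35 to 7.42 in the 4 phosphine rats and 7.71 to 8.43 in the 4 air rats, and the groups stayed apart after quantile normalization, at 6.45 to 7.54 in phosphine blood and 7.59 to 8.36 in air blood.

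Cd22, an inhibitory receptor of the B cell surface, had log2 signals of 6.88, 6.34, 5.97 and 6.55 in phosphine blood, against 8.76, 8.03, 8.49 and 8.27 in air blood. Every phosphine value lay below every air value, and the change was -1.95 ± 0.37 (SE; limma adjusted p = 0.00733), or -1.51 after quantile normalization (limma adjusted p = 0.0313). Bank1, a scaffold protein of B cell receptor signalling, had 5.76, 5.08, 5.22 and 5.45 in phosphine blood, against 7.77, 7.03, 7.24 and 7.83 in air blood. Its change was -2.09 ± 0.45 (limma adjusted p = 0.0118), again without overlap. Cxcr5, the chemokine receptor that guides B cells into follicles, had 3.54, 3.24, 3.00 and 2.99 in phosphine blood, against 5.51, 4.30, 5.99 and 5.27 in air blood. Its phosphine values lay within 2.39 to 3.97, the range of mean signals of the 3360 weakest genes. Cxcr5 was not tested where dim genes were left out. Its change of -2.08 ± 0.51 (limma adjusted p = 0.0198) did not pass the test without Rat729, Rat732, Rat738 or Rat739. Cd22 and Bank1 were called on the deposited scale without any one of the 8 rats, and after quantile normalization only without Rat728 or Rat731.

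Fcer2 (CD23), the low-affinity IgE receptor, had 7.30, 6.18, 4.45 and 5.79 in phosphine blood, against 8.83, 8.09, 8.46 and 8.72 in air blood, a change of -2.60 ± 0.60 (limma adjusted p = 0.0159). Ms4a1 (CD20) had 8.53, 8.13, 6.66 and 8.25 in phosphine blood, against 9.90, 8.91, 9.88 and 9.84 in air blood, a change of -1.73 ± 0.39 (limma adjusted p = 0.0145). Rat730 was the lowest for both, and the groups did not overlap for either. Neither passed the test after quantile normalization, where the adjusted p was 0.0597 for Fcer2 and 0.0668 for Ms4a1 (limma). Cd79b, a signalling chain of the B cell receptor, changed by -1.52 (limma adjusted p = 0.0146) with an overlap, because Rat728 at 8.84 lay above the air rat Rat733 at 8.65. The invariant chain Cd74, the class II genes RT1-Da and RT1-Db1, the Src family kinase Blk and the Fc receptor-like Fcrla also fell on the deposited scale, by between -0.99 (Cd74) and -1.51 (Blk). The other 4 members did not pass: Vpreb3 (a protein of developing B cells, -0.89), RT1-Ba (class II, -0.74), Ebf1 (a B lineage transcription factor, -0.64) and Cr2 (the complement receptor CD21, 0.53). Single rats weighed on these counts: without Rat739 4 of 15 were called on the deposited scale, without Rat732 5, without Rat738 6 and without Rat729 or Rat730 7 each, while the list's median lay between -1.61 and -1.10 over the 8 omissions.

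A further 4 called genes are not in the list. Pou2af1, a coactivator of octamer-dependent transcription in B cells, had 5.49, 5.08, 5.58 and 6.62 in phosphine blood, against 8.15, 7.64, 8.42 and 7.88 in air blood. Its change was -2.33 ± 0.37 (limma adjusted p = 0.00299), and -1.98 after quantile normalization (limma adjusted p = 0.00957). Cd83, a surface protein of activated B cells and dendritic cells, changed by -2.20 ± 0.31 (limma adjusted p = 0.00177), Traf5, an adaptor of TNF family receptors, by -2.32 ± 0.37 (limma adjusted p = 0.003), and Irf2bp2, a corepressor that partners IRF2, by -2.24 ± 0.30 (limma adjusted p = 0.00177). All 4 were called on both scales without any one rat. These 4 genes, and 11 members of the B lymphocyte list given above (all but Cd22, Bank1, Cxcr5 and Fcer2), were picked after their values were seen.

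**Figure D2:**
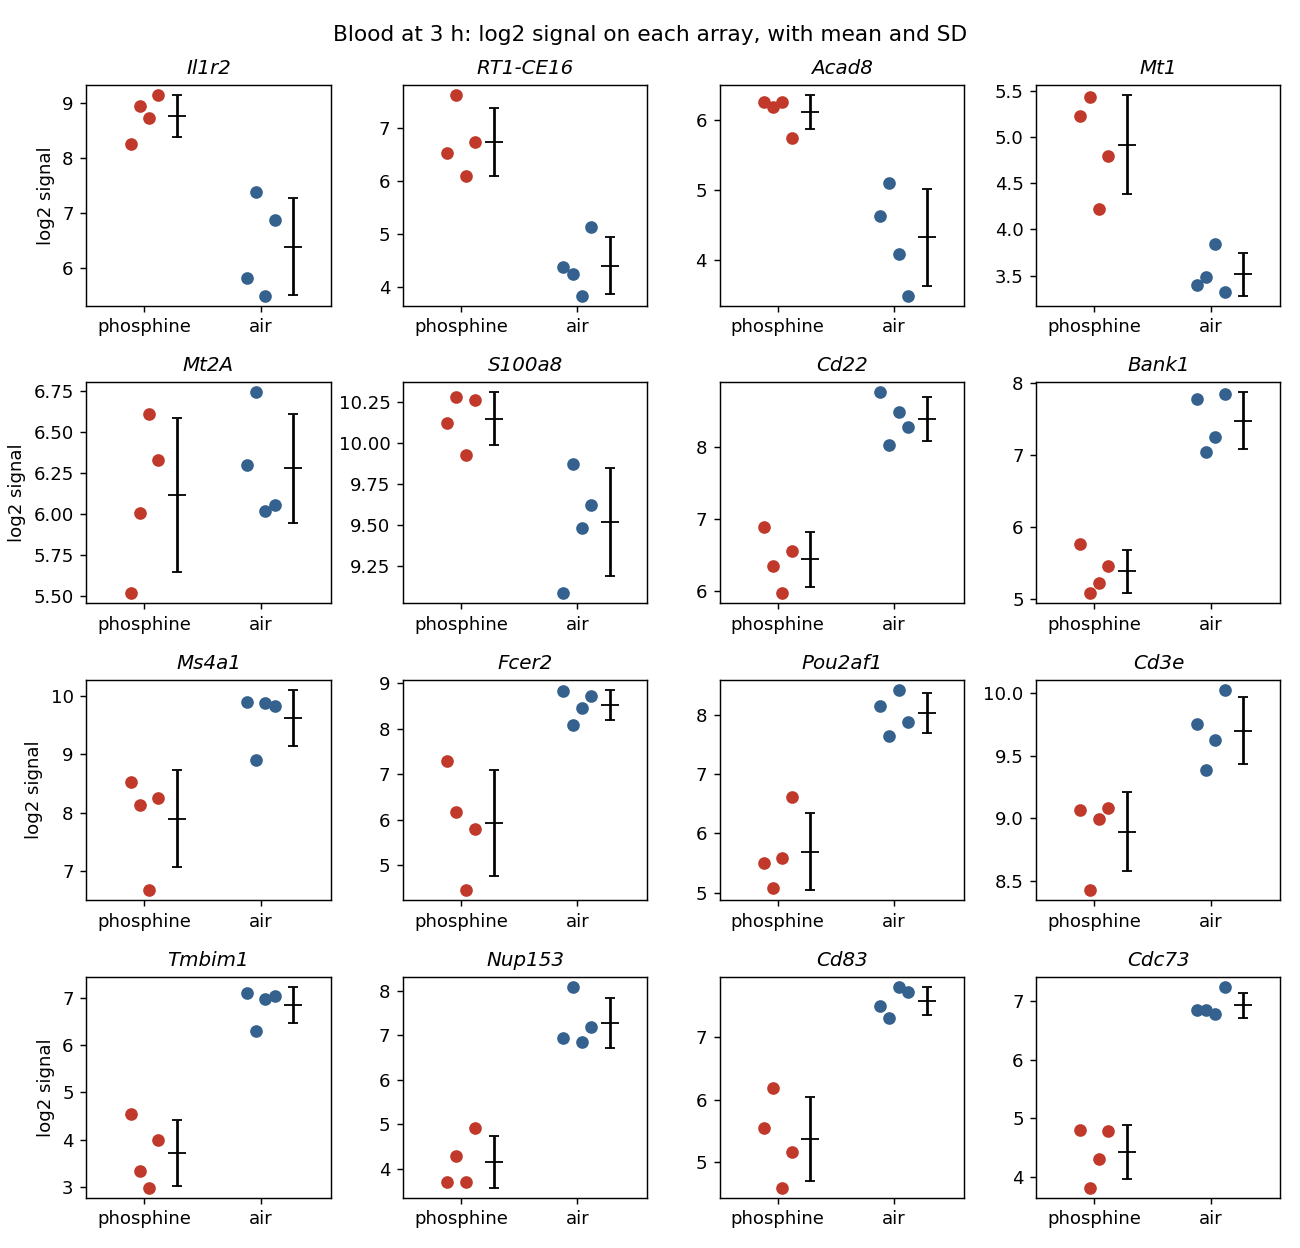
Deposited log2 signal (vertical axis) of 16 genes on each array of blood at 3 h, phosphine rats left and air rats right, with the mean and SD of 4 rats beside the points. Il1r2, RT1-CE16, Acad8 and Mt1 lie higher in phosphine blood without overlap, Mt2A overlaps, and Cd22, Bank1, Ms4a1, Fcer2, Pou2af1, Tmbim1, Nup153, Cd83 and Cdc73 lie lower without overlap.

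Of 20 measured T lymphocyte genes 3 fell on the deposited scale, against 5.8% of all genes, none rose, and the median change was -0.78. The 3 were Cd8b, a chain of the CD8 coreceptor (-1.11, limma adjusted p = 0.0323), Cd3g, a chain of the T cell receptor complex (-0.94, limma adjusted p = 0.0315), and Lat, the adaptor that links that receptor to its signalling (-0.89, limma adjusted p = 0.0319). After quantile normalization none passed, and the median was -0.43. The mean signal of the list was 6.68 to 7.59 in phosphine blood and 7.85 to 7.96 in air blood on the deposited scale, and overlapped after quantile normalization (7.04 to 7.73 in phosphine blood, 7.69 to 7.84 in air blood). These means lay above 6.37, where the 3360 genes with the strongest signals begin. Of those 3360 genes 432 were called lower on the deposited scale, with a median change of -0.42. Cd3e, another receptor chain, lay at 8.43 to 9.08 in phosphine blood and 9.39 to 10.02 in air blood and did not pass (-0.80, limma adjusted p = 0.0586). No T lymphocyte gene was called on the deposited scale without Rat729, Rat732, Rat738 or Rat739. Of 19 monocyte and macrophage genes, Clec4a3, a C-type lectin (-1.73), and Ly6c, a surface marker of inflammatory monocytes (-0.92), fell on the deposited scale, against 5.8% of all genes, and none after quantile normalization. That list's median was -0.30 on the deposited scale and 0.02 after quantile normalization.

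Among 16 genes of lymphocyte and neutrophil trafficking, S1pr1 and Klf2 fell on the deposited scale, against 5.8% of all genes, and none rose. Klf2, a transcription factor that keeps lymphocytes quiescent and drives S1pr1, had 9.84, 8.93, 9.44 and 9.94 in phosphine blood, against 10.81, 10.62, 10.88 and 10.92 in air blood. The change was -1.27 ± 0.28 (limma adjusted p = 0.0146), all 5 of its probe sets moved in the same direction, and it passed after quantile normalization (-1.05, limma adjusted p = 0.0336). It did not pass on the deposited scale without Rat729, and after quantile normalization it passed without Rat728 or Rat731 only. S1pr1, the sphingosine phosphate receptor by which lymphocytes leave lymphoid organs, changed by -1.74 ± 0.46 (limma adjusted p = 0.027), with Rat729 at 6.28 and the other phosphine rats at 8.02 to 8.51, and did not pass after quantile normalization (limma adjusted p = 0.0845). Cxcr4, the chemokine receptor that retains leukocytes in the marrow, did not pass (-0.87, limma adjusted p = 0.137).

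Of 13 measured neutrophil genes 1 rose on the deposited scale, where 0.804% of all genes were called higher. This gene had the largest rise among called genes that reached a mean of 4.96, the median signal of all genes in blood, in either group. Il1r2, the decoy receptor that binds interleukin 1 without signalling, had log2 signals of 8.26, 8.95, 8.73 and 9.14 in phosphine blood, against 5.82, 7.38, 5.50 and 6.87 in air blood. All phosphine values exceeded all air values, and the change was 2.37 ± 0.37 (SE; limma adjusted p = 0.00299), or 2.72 ± 0.33 after quantile normalization (limma adjusted p = 4.61e-04). It was called without any one of the 8 rats on both scales. The other 12 measured neutrophil genes did not pass, with 11 of them above 0 and a list median of 0.56 on the deposited scale and 0.82 after quantile normalization. With air of all times pooled the median was 0.20. S100a8 had 10.12, 10.28, 9.93 and 10.26 in phosphine blood and 9.09, 9.87, 9.48 and 9.62 in air blood, without overlap (0.63, limma adjusted p = 0.143). S100a9 changed by 0.31 (limma adjusted p = 0.44), Cxcr2, a chemokine receptor of neutrophils, by 0.92 (limma adjusted p = 0.354), and Lcn2, a granule protein, by 0.83 (limma adjusted p = 0.368). The mean signal of the list was 6.68 to 7.14 in phosphine blood and 6.06 to 6.58 in air blood, also without overlap.

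Inflammatory genes did not move in one direction. On the deposited scale 0.804% of all genes were called higher and 5.8% lower. Of 32 genes of the NF-kappaB and cytokine list, Il1r2 and the chemokine Ccl20 (1.25, limma adjusted p = 0.0472) rose on that scale. Another 3 fell, among them Birc3, an inhibitor of apoptosis that NF-kappaB induces (-2.04, limma adjusted p = 0.0246), and Nfkb2, a subunit of the factor itself (-1.20, limma adjusted p = 0.0198). Il1b, whose product Il1r2 binds, had 8.52, 9.14, 8.94 and 9.23 in phosphine blood and 8.72, 8.89, 9.51 and 9.23 in air blood, so the groups overlapped (-0.13, limma adjusted p = 0.896). After quantile normalization Il1r2 was the only one of the 32 called. The median of the list was 0.16 on the deposited scale and 0.27 after quantile normalization.

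Metallothioneins are small cysteine-rich proteins that bind zinc and copper, and their genes answer to metals through MTF1 and to glucocorticoids. Of 9 genes of the metallothionein and zinc list, Mt1 rose and the zinc importer Slc39a10 fell on both scales. Of all genes, 0.804% were called higher and 5.8% lower on the deposited scale. Mt1 had 5.23, 5.43, 4.22 and 4.80 in phosphine blood, against 3.40, 3.49, 3.84 and 3.32 in air blood. Its air values lay within 2.39 to 3.97, the range of mean signals of the 3360 weakest genes. Mt1 was not tested where dim genes were left out. The groups did not overlap, and the change was 1.41 ± 0.32 (limma adjusted p = 0.0146), or 1.44 after quantile normalization (limma adjusted p = 0.0285). It did not pass on the deposited scale without Rat729, and after quantile normalization it passed without Rat728, Rat730 or Rat731 only. Mt2A, its neighbour on the chromosome, had 5.52, 6.01, 6.61 and 6.33 in phosphine blood, against 6.30, 6.74, 6.02 and 6.05 in air blood, an overlap with a change of -0.16 ± 0.31 (limma adjusted p = 0.818). Slc39a10 had 4.03, 3.90, 3.62 and 4.36 in phosphine blood and 5.99, 5.94, 5.69 and 6.02 in air blood, a change of -1.93 ± 0.37 (limma adjusted p = 0.00733) that passed without any one rat on the deposited scale.

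The promoters of both metallothionein genes are shown because one gene rose and its neighbour did not. They are RefSeq sequences of the GRCr8 build, from 250 bases before to 50 bases after the start of the gene on the minus strand, at chr19:10832926-10833225 for Mt1 and chr19:10838659-10838958 for Mt2A. Capitals mark the core of the metal response element, TGCGCNC, searched on both strands.
Mt1: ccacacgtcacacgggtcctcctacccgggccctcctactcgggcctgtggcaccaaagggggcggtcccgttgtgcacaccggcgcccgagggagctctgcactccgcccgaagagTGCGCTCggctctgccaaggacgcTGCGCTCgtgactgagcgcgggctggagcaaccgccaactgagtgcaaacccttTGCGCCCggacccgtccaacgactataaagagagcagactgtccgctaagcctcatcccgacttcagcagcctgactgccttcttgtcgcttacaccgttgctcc
Mt2A: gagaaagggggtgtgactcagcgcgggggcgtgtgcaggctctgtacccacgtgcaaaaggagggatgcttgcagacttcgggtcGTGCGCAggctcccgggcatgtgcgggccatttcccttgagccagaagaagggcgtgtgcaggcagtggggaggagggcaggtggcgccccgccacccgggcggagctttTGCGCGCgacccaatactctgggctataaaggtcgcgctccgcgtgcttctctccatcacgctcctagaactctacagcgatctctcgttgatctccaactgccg
The motif occurs at 3 places in the Mt1 window and at 2 in the Mt2A window. It was found in 4719 of 33469 rat promoters of the same length (14.1%). Counted by gene, with a match in any of its promoters, it was found in 6 of the 7 measured genes of the list with a promoter sequence. Slc39a10 was the gene without, and Slc30a2 had a window with 2 matches and another with 0. Counts of promoters and of genes are not the same measure, and they were not tested against each other. A match describes the letters and shows no binding.

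Of 24 glucocorticoid responsive genes, Il1r2 and Mt1 rose and Arrdc2, an arrestin domain protein, fell (-1.33, limma adjusted p = 0.0159) on the deposited scale, where 0.804% of all genes were called higher and 5.8% lower, with a list median of -0.16, and 0.01 after quantile normalization. Fkbp5, a cochaperone of the glucocorticoid receptor, had 6.80, 5.37, 6.57 and 7.03 in phosphine blood and 6.26, 5.47, 6.02 and 5.73 in air blood, an overlap (0.57 ± 0.40, limma adjusted p = 0.435). Tsc22d3 (GILZ) changed by -0.61 (limma adjusted p = 0.161), Per1, a clock gene with a glucocorticoid response element, by 0.42 (limma adjusted p = 0.452), and Ddit4, an inhibitor of mTORC1, by -0.58 (limma adjusted p = 0.495). No gene was called of 17 genes of the NRF2 antioxidant list or of 17 genes of peroxide and superoxide defence. Hmox1, heme oxygenase, changed by -0.24 (limma adjusted p = 0.832), and Cat, catalase of the red cell, by -0.19 (limma adjusted p = 0.628). None of 24 hypoxia and glycolysis genes was called either, and their medians were -0.07 for NRF2, -0.11 for peroxide defence and -0.21 for hypoxia. Of 22 genes of the integrated stress response, Shmt2, the mitochondrial serine hydroxymethyltransferase (-1.34, limma adjusted p = 0.0178), and Aldh18a1, an enzyme of proline synthesis (-1.22, limma adjusted p = 0.0453), fell on the deposited scale. Both are genes that ATF4 is known to induce, but 2 of 22 is a share near the 5.8% of all genes called lower. Neither passed after quantile normalization, and the list's median was -0.003 on the deposited scale and 0.13 after quantile normalization. On the deposited scale Aldh18a1 was called in 0 of the 8 omissions of 1 rat and Shmt2 in 7. Ddit3 (CHOP), a factor of the same response, changed by 0.00 (limma adjusted p = 0.998).

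Lists of protein folding and breakdown had medians below that of all genes. On the deposited scale 5.8% of all genes were called lower, and the 3360 genes with the strongest signals had 432 lower calls and a median of -0.42. All 19 genes of the unfolded protein response of the endoplasmic reticulum had changes below 0, with a median of -0.93, and 4 fell: Syvn1, the ubiquitin ligase that marks misfolded proteins (-1.92, limma adjusted p = 0.0255), Edem1, a lectin of the same disposal route (-1.75, limma adjusted p = 0.0188), Sdf2l1 (-1.26, limma adjusted p = 0.0245) and the chaperone Canx (-1.20, limma adjusted p = 0.0396). Of 17 heat shock chaperone genes 3 fell, Stip1, which joins Hsp70 to Hsp90 (-1.65, limma adjusted p = 0.0256), Hspd1, the mitochondrial Hsp60 (-1.30, limma adjusted p = 0.0193), and Chordc1 (-1.23, limma adjusted p = 0.0291), with a median of -0.71. Of 25 proteasome subunits Psma5 (-1.20) and Psma4 (-1.15) fell, with a median of -0.64 and a share of calls near that of all genes. After quantile normalization none of these genes was called, and the medians were -0.54, -0.46 and -0.27 in the same order. Of 22 complex I genes Ndufb5 (-1.18) and Ndufv2 (-0.78) fell and of 22 genes of complexes III, IV and V Uqcrc2 (-0.93) fell on the deposited scale, shares near that of all genes, with list medians of -0.24 and 0.04. After quantile normalization no gene of these 2 respiratory lists was called, and both medians were 0.12. On the deposited scale Ndufv2 and Uqcrc2 were each called in 1 of the 8 omissions of 1 rat, and Ndufb5 in 6. Most of these calls rested on single rats: without Rat729 no heat shock gene and 1 unfolded protein gene was called, and without Rat739 likewise none and 1.

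Among 14 apoptosis genes 1 rose and 2 fell on the deposited scale, where 0.804% of all genes were called higher and 5.8% lower. Bcl2l11 (BIM), which promotes cell death, rose (1.17, limma adjusted p = 0.0404). Mcl1, which prevents cell death (-1.37, limma adjusted p = 0.0421), and Apaf1, the scaffold of caspase 9 (-1.32, limma adjusted p = 0.0123), fell. Of 22 immediate early genes, Ier5 (-1.93, limma adjusted p = 0.034) and Zfp36 (tristetraprolin, which destabilizes cytokine mRNA, -1.80, limma adjusted p = 0.0315) fell, a share near the 5.8% of all genes. Only 1 of the 3 Ier5 probe sets moved that way. None of these 5 passed after quantile normalization. Bcl2l11 had 4.68, 6.12, 6.21 and 5.12 in phosphine blood and 4.02, 4.47, 4.57 and 4.39 in air blood, and did not pass on the deposited scale without Rat729, Rat730 or any one of the 4 air rats.

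Of 35 lists, 19 with 298 measured genes had no call on the deposited scale, and their medians lay between -0.52 (interferon response) and 0.41 (lung epithelium). They include red cell precursors, platelets, NK cells, and eosinophils, basophils and mast cells. The erythroid list of 21 genes had a median of 0.11 and a mean signal of 10.61 to 11.12 in phosphine blood and 10.30 to 10.96 in air blood. Of its 21 changes 16 were above 0 on the deposited scale. After quantile normalization 19 were above 0, with a median of 0.26 and no call. Alas2, the first enzyme of heme synthesis in red cells, was nearly level at 13.05 to 13.16 in phosphine blood and 12.97 to 13.10 in air blood. The platelet list had a median of -0.01 and the NK list 0.14, against 0.12 and 0.24 after quantile normalization. Markers of other organs gave no call, though the mean signal of the lung epithelium list was 4.71 to 4.96 in phosphine blood and 4.31 to 4.68 in air blood, and that of the hepatocyte list 4.04 to 4.36 in phosphine blood and 3.67 to 4.05 in air blood. These lists lie in the range of weak signals where the median of all genes was above 0, and their part in the results was not tested.

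**Figure D3:**
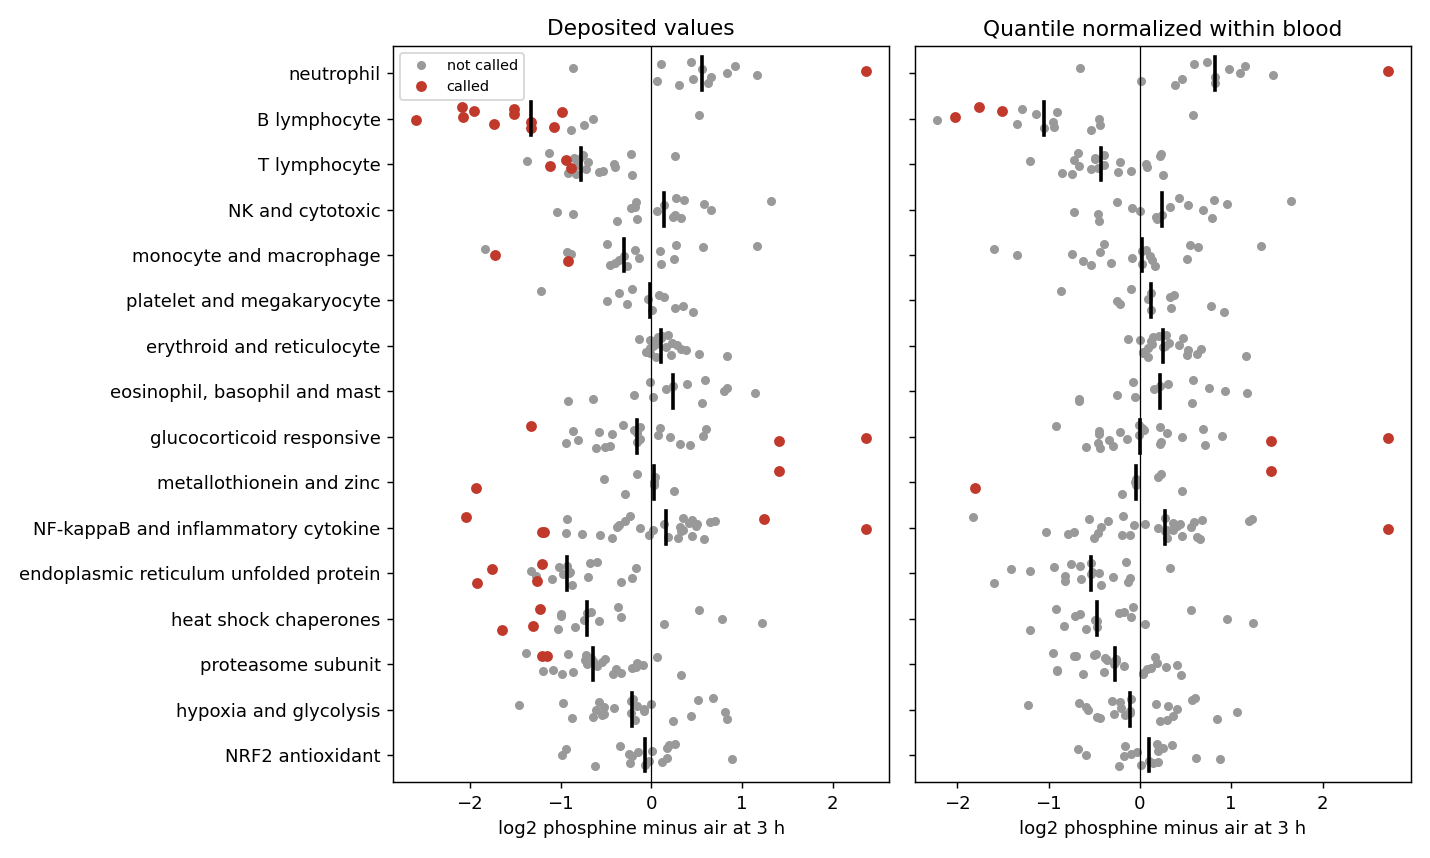
Change at 3 h (log2 phosphine minus air, horizontal axis) of each measured gene of the lists shown on the vertical axis, on the deposited scale and after quantile normalization. Filled coloured points are called genes, grey points are not called, and a bar marks the median of the list. The B lymphocyte list lies lowest, with medians of -1.32 and -1.05, and the neutrophil list lies above 0, with medians of 0.56 and 0.82.

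Further rises were spread over genes of unrelated roles. RT1-CE16, a class I antigen presenting gene, had 6.53, 7.63, 6.10 and 6.74 in phosphine blood, against 4.38, 4.25, 3.84 and 5.13 in air blood, a change of 2.35 ± 0.45 (limma adjusted p = 0.00776) without overlap. Class I genes of the rat are many and alike, so which of them its probe set reads is uncertain. The rats were of an outbred stock, and the part of inherited differences between them in this gene was not tested. Acad8, isobutyryl-CoA dehydrogenase of valine breakdown, had 6.26, 6.18, 6.27 and 5.75 in phosphine blood and 4.63, 5.10, 4.08 and 3.49 in air blood, a change of 1.79 ± 0.35 (limma adjusted p = 0.00806). Both passed after quantile normalization, and on the deposited scale without any one rat. Serf1 (2.20), Tmem53 (1.92), Pnkd (1.90), Afap1l1 (1.84), the growth factor Mdk (1.80), Mospd4 (1.71), Cp, the copper protein ceruloplasmin (1.69), and Khnyn, an RNA-binding antiviral cofactor (1.67), rose on both scales. Hbz, the embryonic zeta globin, rose on the deposited scale (1.77) but not after quantile normalization (limma adjusted p = 0.0626). Mdk, Khnyn and Hbz were the least stable, called without at most 1 of the 8 rats each on the deposited scale, and Cp was called without 3. After quantile normalization Khnyn was called in 0 of the 8 omissions, Mdk in 1 and Cp in 2.

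The largest falls were taken among genes that reached the median signal in either group. Tmbim1, a membrane protein with a BAX inhibitor motif, had 4.55, 3.34, 2.98 and 3.98 in phosphine blood, against 7.11, 6.30, 6.98 and 7.04 in air blood, a change of -3.14 ± 0.50 (limma adjusted p = 0.00299) and -2.97 after quantile normalization (limma adjusted p = 0.00689). Nup153, a nuclear pore protein, had 3.70, 4.28, 3.70 and 4.92 in phosphine blood, against 6.95, 8.09, 6.85 and 7.19 in air blood, a change of -3.12 ± 0.55 (limma adjusted p = 0.00579). The groups did not overlap for either gene. Others on both scales were Zfp386 (-2.89), the cyclin Ccng2 (-2.79), the adaptor Sh2b2 (-2.76), Tgif1, a corepressor of TGF-beta signalling (-2.68), Pnpt1, a mitochondrial RNA-degrading enzyme (-2.66), Cmahp (-2.64), Wapl, which releases cohesin from chromosomes (-2.56), Scd2, a fatty acid desaturase (-2.56), and P2ry10, a lysophospholipid receptor of lymphocytes (-2.55). Cdc73, a subunit of the PAF1 transcription elongation complex, had 4.80, 3.81, 4.30 and 4.78 in phosphine blood, against 6.85, 6.86, 6.78 and 7.25 in air blood, a change of -2.51 ± 0.36 (limma adjusted p = 0.00177). Probe sets of the same gene did not all move alike for Wapl (2 of 4 below 0) and Scd2 (3 of 4), and Scd2 and Zfp386 did not pass on the deposited scale without Rat729. After quantile normalization Zfp386 was called in 1 of the 8 omissions of 1 rat, Ccng2, Scd2 and P2ry10 in 2 each, Tgif1 in 5 and Cmahp in 6. Tmbim1, Nup153, Sh2b2, Pnpt1, Wapl and Cdc73 were called in all 8. Over 17 alternative settings, leaving out the covariate fit, 59 genes were called in every one that tested them, 55 lower and 4 higher. Of these, 2, Mospd4 among them, were not tested where dim genes were left out. The 4 higher genes were Il1r2, RT1-CE16, Acad8 and Mospd4.

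At 1 h after exposure 1 gene was called (0.00744%), the laminin chain Lamb2, named after its value was seen (2.21 ± 0.35, limma adjusted p = 0.0259), which changed by 0.25 at 3 h (limma adjusted p = 0.74), and 7.72% of genes had an unadjusted p under 0.05. The change at 3 h minus the change at 1 h, tested as a contrast, passed for no gene (0%; smallest limma adjusted p = 0.236; 9.04% at an unadjusted p under 0.05), so a difference between the times was not shown for any gene. The 3′ minus 5′ actin signal was 0.533 to 0.717 in phosphine blood and 0.473 to 0.686 in air blood at 3 h, but 0.88 to 2.15 in phosphine blood and 0.64 to 1.37 in air blood at 1 h, and its part in this comparison was not tested. Il1r2 was already 8.24 to 8.78 in phosphine blood and 6.43 to 7.61 in air blood at 1 h, a change of 1.38 that did not pass (limma adjusted p = 0.318). The B lymphocyte list at 1 h was at 6.91 to 7.17 in phosphine blood and 7.45 to 8.32 in air blood, without overlap. At 6 h the list was at 7.27 to 8.50 in 5 phosphine rats and 7.81 in the single air rat, and at 24 h at 7.52 and 8.38 in 2 phosphine rats with no air rat. Il1r2 was at 8.01 to 9.29 in phosphine blood and 7.62 in the single air rat at 6 h, and at 6.18 and 6.62 in phosphine blood at 24 h. Air groups of different times lay apart as well: the 75th percentile of the arrays was 5.66 to 5.77 in air blood at 1 h and 5.83 to 5.92 in air blood at 3 h, and with air of all times pooled 310 genes were called at 3 h.

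**Figure D4:**
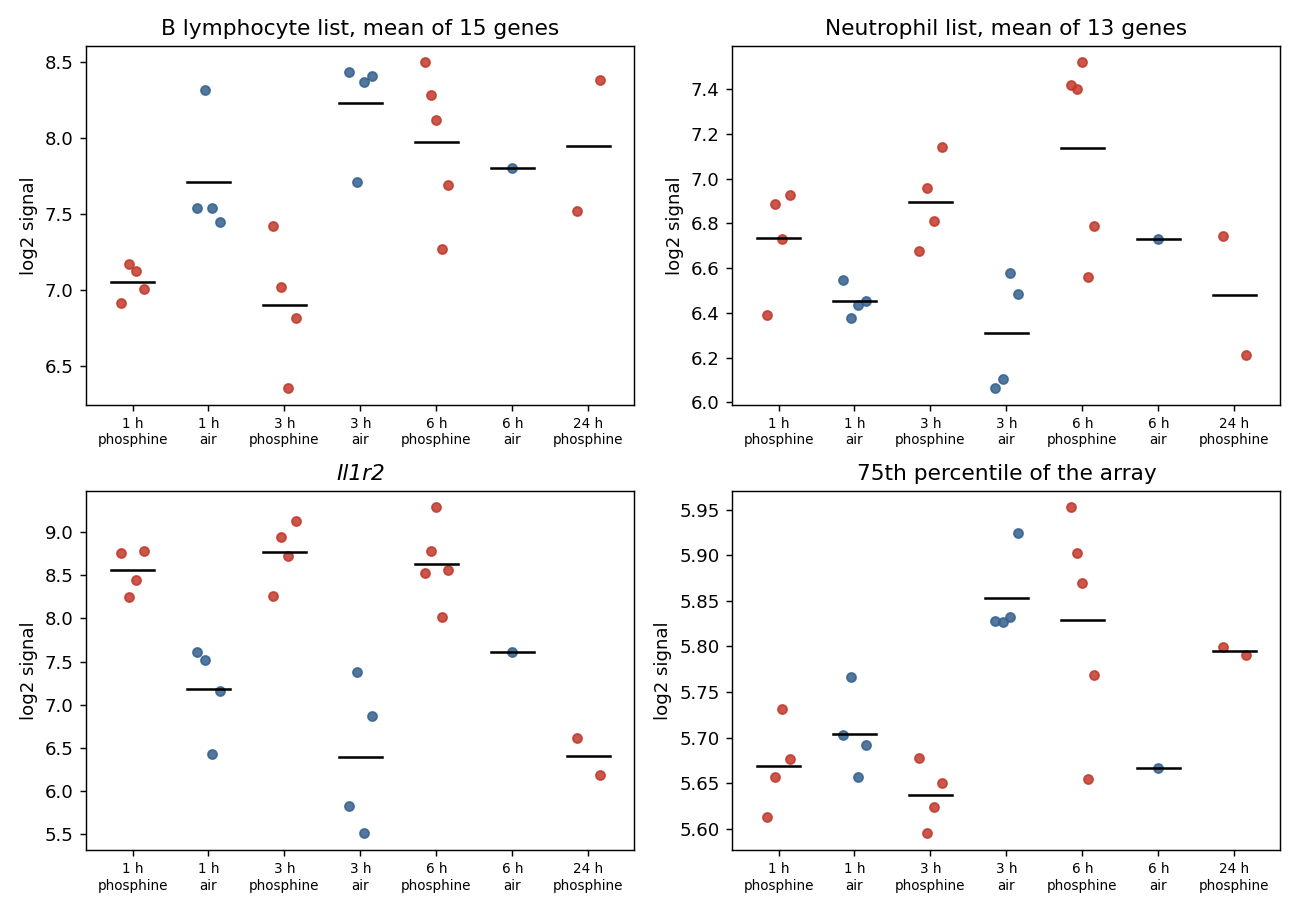
Mean log2 signal of the B lymphocyte list and of the neutrophil list, log2 signal of Il1r2, and 75th percentile of the array (vertical axes) in each blood sample, by time after exposure with phosphine left of air (horizontal axis). At 3 h the B lymphocyte list lies at 6.35 to 7.42 in phosphine blood and 7.71 to 8.43 in air blood, and Il1r2 lies higher in phosphine blood without overlap, as does the neutrophil list. No air group was available for 24 h and 1 air rat for 6 h.

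The same 8 rats gave brain, heart, kidney, liver and lung, so the change in blood could be set against the mean change of those organs within each rat. The difference passed for 628 genes (4.67%), 558 with a lower change in blood (4.15%) and 70 with a higher one (0.521%). Il1r2 changed by 1.80 ± 0.40 more in blood than in the organs (limma adjusted p = 0.0333), but it rose in lung too (2.11, limma adjusted p = 8.36e-06), and against lung alone the difference was 0.26 (limma adjusted p = 0.679). Cd22 (-1.88 ± 0.29, limma adjusted p = 0.0137), Bank1 (-1.77 ± 0.29, limma adjusted p = 0.0167), Cxcr5 (-2.16 ± 0.36, limma adjusted p = 0.0179) and Ms4a1 (-1.65 ± 0.36, limma adjusted p = 0.031) had a lower change in blood than in the organs on the deposited scale. After quantile normalization within tissue Cxcr5 passed (limma adjusted p = 0.0326), while Cd22, Bank1 and Ms4a1 did not (limma adjusted p = 0.0566, 0.0566 and 0.117). In air rats the level in blood minus that in the organs was 4.08 for Cd22, 3.84 for Bank1, 2.30 for Cxcr5 and 6.07 for Ms4a1. The mean change of the organs was -0.07, -0.32, 0.09 and -0.08 in the same order. The organs thus had less signal to lose, and how far this shaped the differences was not tested. Bank1 fell in lung too (-2.03, limma adjusted p = 5.18e-07), where the difference from blood was -0.06 (limma adjusted p = 0.941).

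Fkbp5, Tsc22d3 and Mt2A, all glucocorticoid responsive, had lower changes in blood than in the organs on the deposited scale, and none of the 3 passed after quantile normalization within tissue (limma adjusted p = 0.123 for Fkbp5, 0.06 for Tsc22d3 and 0.0607 for Mt2A). Of the 24 genes of that list, 13 rose in lung (background 5.84%), 9 in brain (0.365%), 7 in heart (1.06%), 6 in kidney (2.86%) and 3 in liver (1.99%), and 2 rose in blood (0.804%). Fkbp5 rose in all 5 organs, by 1.13 in brain to 2.83 in lung, and its blood minus organ difference was -1.45 ± 0.34 (limma adjusted p = 0.0376). For Tsc22d3 the difference was -1.39 ± 0.26 (limma adjusted p = 0.0242). Mt2A rose in heart (2.86, limma adjusted p = 0.0054), lung (2.62, limma adjusted p = 1.73e-05) and brain (1.34, limma adjusted p = 0.00271), and its blood minus organ difference was -1.68 ± 0.28 (limma adjusted p = 0.0167). Tmbim1, Sh2b2, Pnpt1, Wapl and Pdcl3, a phosducin-like chaperone of protein folding, gave the smallest p of this comparison, with differences of -3.34, -2.74, -2.65, -2.56 and -2.41 (limma adjusted p = 0.00529 each). These 5 passed without any one rat, while Il1r2, Fkbp5 and Ms4a1 passed without only 2 of the 8. Bank1 passed in 6 of the 8 omissions, Cd22, Cxcr5 and Mt2A in 5 each and Tsc22d3 in 4. The number of differences was 11 without Rat739, 37 without Rat732, 41 without Rat738, 99 without Rat733, 147 without Rat729 and 256 without Rat730, and after quantile normalization within each tissue it was 57.

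**Figure D5:**
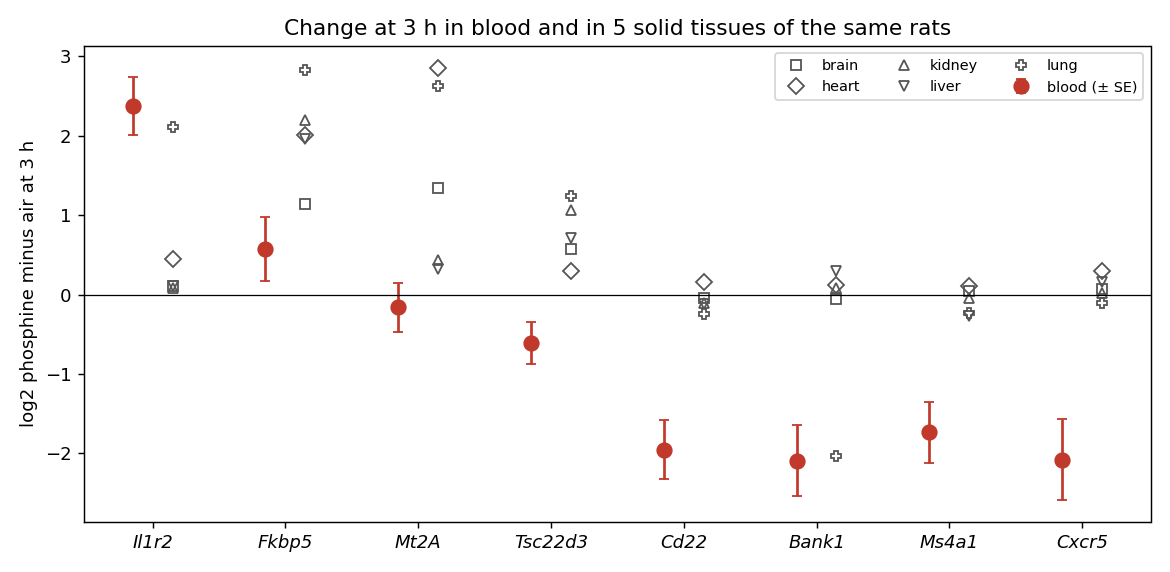
Change at 3 h (log2 phosphine minus air, vertical axis) of named genes (horizontal axis) in blood, with its SE, and in brain, heart, kidney, liver and lung of the same 8 rats. Fkbp5 and Mt2A lie higher in the solid tissues than in blood, Il1r2 and Bank1 lie close together in blood and lung, and Cd22 lies near 0 in all 5 organs.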

How the data were processed

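The values are those of Affymetrix rat arrays of perfect-match probes, hybridised with biotin-labelled RNA from whole blood (3′ IVT Plus labelling and RNeasy Protect Animal Blood columns, per the labels' protocols). The authors deposited a log2 signal for each probe set and array, computed with RMA and Partek per the submitters' processing notes. Their versions are not given in the sources used here. Precision is limited by the number of arrays, since an array has no sequencing depth.

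Of 31139 probe sets on 174 arrays, 19063 have 1 gene symbol in the platform table, 572 have several and 11407 have none, and 97 of the 31139 are controls. Each of 13438 genes was represented by 1 probe set, the one of highest average signal across the series. limma 3.58.1 (R 4.3.3) was fitted with lmFit and eBayes to all 24 blood arrays with a mean for each group of exposure and time, and p-values were adjusted by Benjamini-Hochberg over all genes, with calls under 0.05. The fit was repeated after quantile normalization over the blood arrays, with the difference from 1 h as a contrast, and on 1 value per rat for blood minus 5 solid tissues. The fit of phosphine against air at 3 h on the deposited scale was tested on simulated data with known changes. The simulated arrays did not carry the difference in spread between the groups. Array measures were compared by exact permutation tests. Gene lists (35) are described by counts and medians and were not tested.

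Genes were named by rule: the 12 largest rises and 12 largest falls among called genes that reached the median signal of blood in either group, up to 4 called members of each list (3 of smallest p where none was called), the 5 smallest p of each difference test, the 10 largest changes among genes called on both scales, and a fixed panel of 19 genes, 17 of them measured. The text gives 81 of the 137 genes so named, and 15 others chosen after their values were seen, besides Lamb2. The members, lists and rules were chosen with earlier results of these data known. Promoters are RefSeq windows of the GRCr8 build. The alternatives tried are those named in the closing section.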

Additional observations from a re-analysis of the deposited data

Results flagged for a closer look

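Of 204 groups of 4 rats looked at for single deviating values, 16 held one whose gap to its neighbour, divided by the range of the group, exceeded the critical value of Dixon's test, and chance alone flags about 1 in 20. In phosphine blood, Rat731 was low for Afap1l1 (5.53) and Acad8 (5.75) and high for Lcn2 (6.59), and Rat729 was low for Cd3e (8.43) and high for Ddit3 (7.13). In air blood, Rat733 was low for Mdk (4.10), Tmbim1 (6.30) and the B lymphocyte genes Ms4a1 (8.91), Cd79b (8.65) and Cd74 (10.8). The other 3 air rats lay at 9.84 to 9.90 for Ms4a1 and 9.95 to 9.99 for Cd79b. Without Rat733 10 of 15 B lymphocyte genes were called lower on the deposited scale. Rat732 was low for Vpreb3 (5.79) and high for Mcl1 (9.13), Rat738 was low for Ddit4 (5.07), and Rat739 was high for Cdc73 (7.25). The array of Rat739 also stood apart from the other air arrays, with a median of 4.33 and a 75th percentile of 5.92, where the others had 4.38 and 5.83.

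Blood and the solid tissues of the same rats differed in their change at 3 h, by limma on the difference itself, for 13 of the named genes. The change in blood was higher for Il1r2 (1.80). It was lower for Tmbim1 (-3.34), Sh2b2 (-2.74), Pnpt1 (-2.65), Wapl (-2.56), Pdcl3 (-2.41), Cxcr5 (-2.16), Cd22 (-1.88), Bank1 (-1.77), Mt2A (-1.68), Ms4a1 (-1.65), Fkbp5 (-1.45) and Tsc22d3 (-1.39). After quantile normalization within each tissue Il1r2, Cxcr5, Tmbim1, Sh2b2, Pnpt1, Wapl and Pdcl3 still passed.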

How the results depend on the processing

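No printed called gene (75) changed sign under any setting, 28 passed without each rat in turn on the deposited scale, and 15 passed under every setting that tested them but the covariate. The 887 calls at 3 h became 247 after quantile normalization, 310 with air of all times pooled and 0 with the 75th percentile of the array as a covariate (its values do not overlap between the groups). Leaving out 1 rat gave 209 (without Rat729) to 960 (without Rat728), with 537 without Rat730, 388 without Rat732, 348 without Rat738 and 245 without Rat739. After quantile normalization the 247 calls became 85 with only the 8 arrays of 3 h and 427 with array quality weights, both added after the data were seen, and 30 (without Rat729) to 434 (without Rat728) without 1 rat. Of 15 B lymphocyte genes, 11 lower calls became 3 after quantile normalization, 7 with only the 8 arrays of 3 h, 0 with the covariate and 4 to 11 without 1 rat. The 3 T lymphocyte calls became 0 after quantile normalization, median centring, the covariate or with only the 8 arrays of 3 h, 1 with pooled air, 8 without dim genes, 7 with either eBayes trend or array weights, and 0 to 5 without 1 rat. The 628 differences between blood and solid tissues became 57 after quantile normalization within tissue and 11 to 709 without 1 rat. The difference between 3 h and 1 h stayed at 0 calls under every setting run; 9.04% of genes had an unadjusted p below 0.05. Apart from the construction of the settings with fewer arrays, the cause was not tested. No paired analysis was possible because phosphine and air blood came from different rats, and rat numbers are shared only across the tissues of 1 animal.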

Other observations

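The 5 genes with the smallest p for the change at 3 h minus the change at 1 h are given as values, since none passed (limma adjusted p = 0.236 each). Rgs22, a regulator of G protein signalling, changed by 1.65 at 3 h and -0.86 at 1 h, a difference of 2.51 ± 0.52. Slc26a10, an anion transporter family member, changed by 1.33 at 3 h and -0.80 at 1 h. Cdc73 changed by -2.51 at 3 h and -0.11 at 1 h. C20h6orf136 changed by -1.52 at 3 h and 0.39 at 1 h, and Ptgr2, a prostaglandin reductase, by -0.79 at 3 h and 1.35 at 1 h. At 3 h alone Rgs22, Slc26a10, Cdc73 and C20h6orf136 were called on both scales, and Ptgr2 was not called on either.

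Ribosomal protein genes, among the strongest signals of blood, had small changes: 18 of 20 were below 0 on both scales, with medians of -0.26 on the deposited scale and -0.20 after quantile normalization, and none was called. Of 22 interferon response genes 15 were below 0 on the deposited scale and none was called, with medians of -0.52 on that scale and -0.24 after quantile normalization. The iron and heme list, in which many genes belong to red cell precursors, had 14 of 19 genes above 0 on both scales, with medians of 0.26 and 0.37 and no call.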
